A study of Homo sapiens with 6 samples.

Results

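MYC, MYCN and the proteins that share their partners form a network of transcription factors, and its transcripts were read here in human neuroblastoma cells after a short exposure to bilirubin. Members were taken by gene symbol: every probe set annotated with MYC, MYCN, MAX, MXI1, MNT, MXD4 or MLX as its sole symbol. The rule gave 15 probe sets of 6 genes, out of 22215 probe sets tested. MAX had 5 of them, MLX had 4, MYCN had 3, and MYC, MXI1 and MNT had 1 each. MXD4 had 0, because its 3 probe sets also carry the symbol MIR4800, so it was not measured.

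The measurements came from 6 Affymetrix GeneChip human arrays hybridised with RNA of SH-SY5Y cells, an established line of neuronal character from a human neuroblastoma. For 1 h, 3 cultures received Bf 140 nM, that is medium with 140 nM free unconjugated bilirubin (UCB), the pigment not bound to albumin. The 3 control cultures received DMSO 0.6%, the vehicle in which UCB is dissolved, and cells were otherwise grown alike in medium with foetal bovine serum. Separate flasks were used, the replicates were biological, and the results hold for this 1 line. The line is known to lack amplification of MYCN. The comparison asked which transcripts of the network differed early in the response to UCB, and no probe set did at the threshold used.

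MYC and MYCN bind DNA only as dimers with MAX, at a motif called the E box, and drive genes of ribosome production, nucleotide synthesis and cell growth. MXI1, MXD4 and MNT compete for MAX and bring SIN3 co-repressors to the same motif, while MLX pairs with MNT, MXD4 and the glucose-responsive factors MLXIP (MondoA) and MLXIPL (ChREBP). MYC messenger RNA is short-lived and responds quickly to growth signals, and MYCN is the family member known as the driver of aggressive neuroblastoma.

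Some genes of the network carry the motif of their own proteins near their start, and these are shown because they are the letters a MAX or MLX dimer reads. The E box CACGTG, which reads the same on both strands, was searched in the 250 bases before each annotated start in RefSeq, build GRCh38.p14. It stood in 6.34% of the 35116 windows and in 3 of the 9 windows of the 6 member genes with one, those of MNT, MXD4 and MLX. MYCN, MAX and MXI1 had windows without these letters. MYC had no window in the table used here. Each line gives 30 bases on the strand of the gene, 5′ to 3′, with the E box in capitals.
MNT, chr17:2401236-2401265, minus strand, E box beginning 193 bases before the start: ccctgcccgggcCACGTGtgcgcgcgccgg
MXD4, chr4:2262330-2262359, minus strand, E box beginning 238 bases before the start: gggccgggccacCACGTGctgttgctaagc
MLX, chr17:42567038-42567067, plus strand, E box beginning 50 bases before the start: gcgggcgcgggtCACGTGggcacgccaccc

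Both replicate 3 arrays stood apart from the other 4 before any gene was considered. On them the probe set at the 3′ end of actin exceeded that at its 5′ end by 1.49 (Bf 140 nM) and 1.90 (DMSO 0.6%) on the log2 scale, against 0.10 to 0.50 on the others. The same difference for GAPDH was 1.03 and 1.15, against 0.20 to 0.25. Array medians ran from 7.73 to 7.97, and those of replicate 3 were on average 0.20 lower. Of 13 noradrenergic neuroblastoma markers measured, 11 lay above the median level of all probe sets, at a median percentile of 96.6, while TH and HAND2 lay below it. Blood cell markers measured were PTPRC, CD3E and HBB, and 0 of these 3 lay above the median. Of 9 mesenchymal and Schwann cell markers, 4 did, TWIST1, FN1, COL1A1 and SNAI2. Each marker was the brightest probe set of its gene.

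The levels are deposited values on the log2 scale, and the place of a probe set among all those of an array is given beside them. Brightness differs between probe sets for reasons other than the amount of RNA, so differences were tested only within a probe set across arrays, and a place among all probe sets is a description that ranks no gene above another. MYC, read by 202431_s_at, was the member with the largest difference between replicates 1 and 2. In cells treated with Bf 140 nM its levels were 9.29, 8.71 and 8.30 in replicates 1, 2 and 3. With DMSO 0.6% they were 9.53, 8.94 and 8.29. The 2 arrays of each replicate number lay close together, and the treatment groups overlapped across nearly their whole range. It stood at the 58.9th to the 75.4th percentile of its array.

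The means for MYC were 8.76 ± 0.50 (SD, n = 3) with Bf 140 nM and 8.92 ± 0.62 (SD, n = 3) with DMSO 0.6%. The difference, Bf 140 nM minus DMSO 0.6%, was -0.16 on the log2 scale, with a 95% confidence interval from -1.06 to 0.75 and a limma adjusted p of 1.00. Within replicate numbers it was -0.25, -0.24 and 0.0099. Subtracting what the 2 arrays of a number share, by fitting the replicate number as a block, left the difference as it was and narrowed its interval to -0.35 to 0.034 (limma adjusted p = 1.00).

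MYCN was read by 3 probe sets, all below the median of the arrays, at mean percentiles of 39.3, 44.7 and 26.1. The brightest, 209757_s_at, gave 7.66, 7.56 and 7.72 with Bf 140 nM and 7.78, 7.61 and 7.42 with DMSO 0.6%. For 209756_s_at the levels were 7.21, 7.51 and 7.29 with Bf 140 nM and 7.46, 7.48 and 7.35 with DMSO 0.6%. The groups overlapped for both probe sets. Replicate 2 was the highest of each group for 209756_s_at, while for 209757_s_at replicate 3 was the highest with Bf 140 nM and the lowest with DMSO 0.6%. The least bright, 211377_x_at, gave 7.02, 7.0 and 6.73 with Bf 140 nM and 6.90, 6.95 and 6.86 with DMSO 0.6%. The suffix x marks probe sets with probes that also match other sequences, and its signal is uncertain for that reason.

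The differences for MYCN were 0.038 for 209757_s_at (95% confidence interval -0.24 to 0.32), -0.091 for 209756_s_at (-0.35 to 0.17) and 0.016 for 211377_x_at (-0.24 to 0.28), each with a limma adjusted p of 1.00. These intervals were narrower than that of MYC. The 3 probe sets did not move together from array to array, with correlations across the 6 arrays between -0.16 and 0.18. At levels below the array median, signal from other sequences and from MYCN cannot be told apart in these values.

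**Figure D1:**
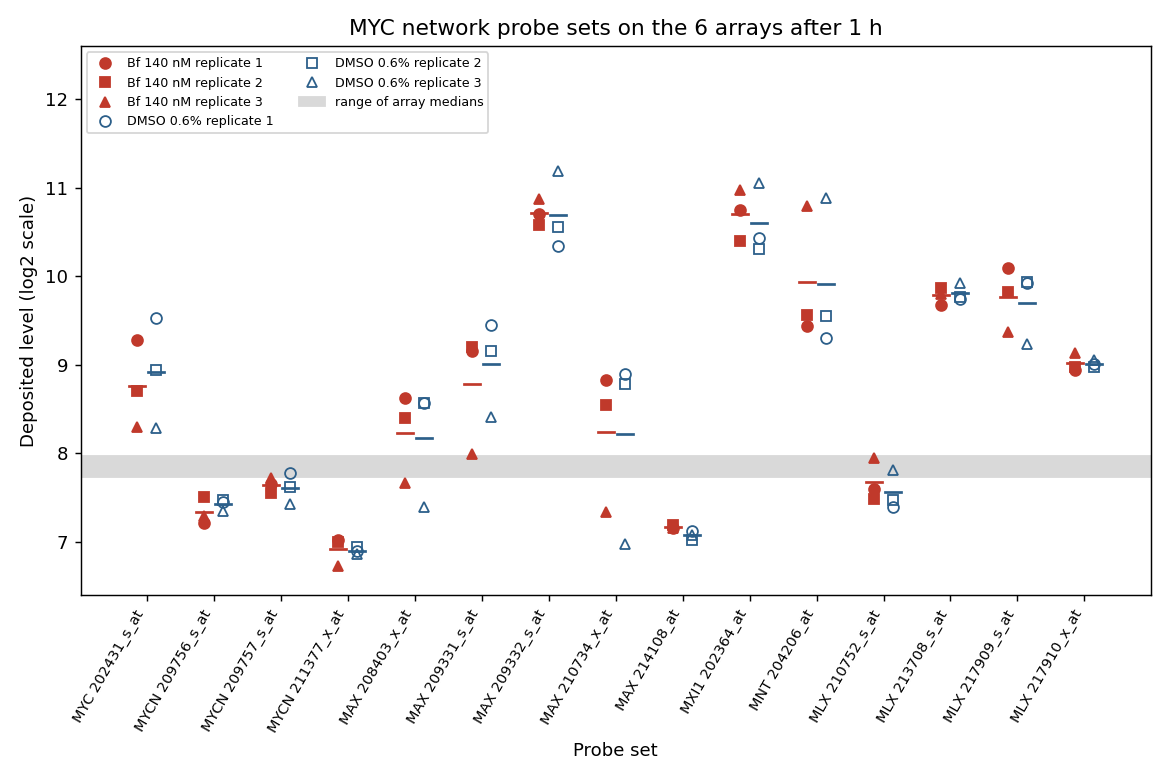
Deposited level (log2 scale) of each of the 15 member probe sets on the 6 arrays, with filled symbols for Bf 140 nM, open symbols for DMSO 0.6%, shapes for the replicate number and short lines for the group means. The grey band spans the array medians, 7.73 to 7.97: all 3 MYCN probe sets have means below it, and MYC, MXI1 and MNT lie above it. Triangles of replicate 3 sit apart for MNT and 3 of the MAX probe sets, and are the lowest of each group for MYC.

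MAX, the obligate partner of both, was read by 5 probe sets that behaved in different ways. The levels of 209332_s_at were 10.70, 10.58 and 10.87 with Bf 140 nM and 10.34, 10.55 and 11.19 with DMSO 0.6%. Those of 209331_s_at were 9.15, 9.20 and 7.99 with Bf 140 nM and 9.45, 9.15 and 8.41 with DMSO 0.6%. Replicate 3 was thus the highest of each group for the first and the lowest for the second.

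For 210734_x_at the levels were 8.83, 8.55 and 7.34 with Bf 140 nM and 8.89, 8.78 and 6.97 with DMSO 0.6%. For 208403_x_at they were 8.63, 8.39 and 7.67 against 8.56, 8.56 and 7.39. Replicate 3 was lowest for both in each group. Across the 6 arrays both correlated at 0.998 with each other, and with 209331_s_at at 0.889 (208403_x_at) and 0.913 (210734_x_at). With 209332_s_at the correlation was -0.886 for 208403_x_at, -0.904 for 210734_x_at and -0.804 for 209331_s_at. The 6 points include the replicate 3 arrays, which stood apart. Over the 4 other arrays 208403_x_at correlated at 0.904 with 210734_x_at but at 0.031 with 209331_s_at and 0.076 with 209332_s_at. Over the same 4 arrays 209331_s_at and 209332_s_at correlated at -0.916.

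The differences between treatments for these 4 MAX probe sets were small beside that spread. They were 0.023 for 209332_s_at, 0.023 for 210734_x_at, 0.057 for 208403_x_at and -0.22 for 209331_s_at, all with a limma adjusted p of 1.00. For 209331_s_at, the member with the largest difference in size, the 95% confidence interval ran from -1.21 to 0.76. Within replicate numbers its differences were -0.30, 0.050 and -0.42. With the replicate block the interval was -0.44 to -0.0079, and the unadjusted limma p was 0.043 (adjusted p = 1.00).

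The remaining MAX probe set, 214108_at, was dim and steady. It gave 7.16, 7.19 and 7.16 with Bf 140 nM and 7.13, 7.02 and 7.08 with DMSO 0.6%. All values with Bf 140 nM lay above all those with DMSO 0.6%. The difference was 0.091 with a 95% confidence interval from -0.098 to 0.28 and a limma adjusted p of 1.00. An exact two-sided permutation test of 3 arrays against 3 cannot go below p = 0.1. Any probe set whose groups do not overlap has that value, so it adds nothing here. MAX 214108_at was the 1 member of 15 whose groups did not overlap with Bf 140 nM higher, a pattern in 2.06% of all probe sets. Of members 0 had the opposite pattern, found in 0.59% of all probe sets.

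MXI1 and MNT, the repressors that compete for MAX, lay at mean percentiles of 88.2 and 80.8 of the arrays. MXI1 gave 10.75, 10.40 and 10.97 with Bf 140 nM and 10.44, 10.31 and 11.05 with DMSO 0.6%. MNT gave 9.44, 9.56 and 10.79 with Bf 140 nM and 9.30, 9.55 and 10.88 with DMSO 0.6%. Replicate 3 was the highest of each group for both repressors, whereas it was the lowest for MYC.

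The difference between treatments was 0.11 for MXI1 (95% confidence interval -0.47 to 0.69), with 0.31, 0.091 and -0.072 in the 3 replicate numbers. It was 0.022 for MNT (-1.25 to 1.3), with 0.14, 0.012 and -0.089. Both had a limma adjusted p of 1.00. Blocking on the replicate number narrowed the interval of MNT to -0.16 to 0.21 and that of MXI1 to -0.092 to 0.31.

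MLX, the centre of the parallel network that senses glucose, was read by 4 probe sets. For 213708_s_at the levels were 9.68, 9.87 and 9.80 with Bf 140 nM and 9.74, 9.77 and 9.93 with DMSO 0.6%. For 217909_s_at they were 10.09, 9.82 and 9.37 against 9.92, 9.94 and 9.23. The first varied little, and the second was lowest in replicate 3 in both groups. The levels of 217910_x_at were 8.94, 8.97 and 9.13 with Bf 140 nM and 9.01, 8.97 and 9.05 with DMSO 0.6%. Those of 210752_s_at were 7.60, 7.48 and 7.95 against 7.40, 7.47 and 7.82, highest in replicate 3 in both groups and thus opposite to 217909_s_at.

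The differences for MLX were -0.028 for 213708_s_at, 0.065 for 217909_s_at, 0.0028 for 217910_x_at and 0.11 for 210752_s_at. The last was positive in all 3 replicate numbers, at 0.20, 0.0094 and 0.13, with a 95% confidence interval from -0.30 to 0.52. All had a limma adjusted p of 1.00. MLX 210752_s_at and MAX 214108_at were the 2 members positive in every pair, against 11.8% of all probe sets. Of members 0 were negative in every pair, against 5.83% of all.

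Over all 15 member probe sets, 0 passed an adjusted p under 0.10 in limma, as did 0% of all probe sets. Unadjusted p fell under 0.05 for 0 members, against 22 of 22215. This fit leaves the variation shared by a replicate number in its error, and the members' intervals were wider in it than with the block. With the replicate block 0 members and 0% of all passed, and 1 member, MAX 209331_s_at, had an unadjusted p under 0.05, against 270 of 22215. The members' differences ran from -0.22 to 0.11 with a median of 0.023, and the median of all probe sets was 0.014. Their median size was 0.057, against 0.048 for all. The 95% confidence interval lay within 1 log2 unit of no change for 10 of the 15 without the block, beside 21187 of all 22215. With the block this held for all 15, beside 22213 of all 22215, and no limit of a member lay further from 0 than 0.44. The block leaves 2 residual degrees of freedom, beside 10.2 that limma takes from the variances of all probe sets. The narrow intervals thus rest largely on variances of other probe sets.

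**Figure D2:**
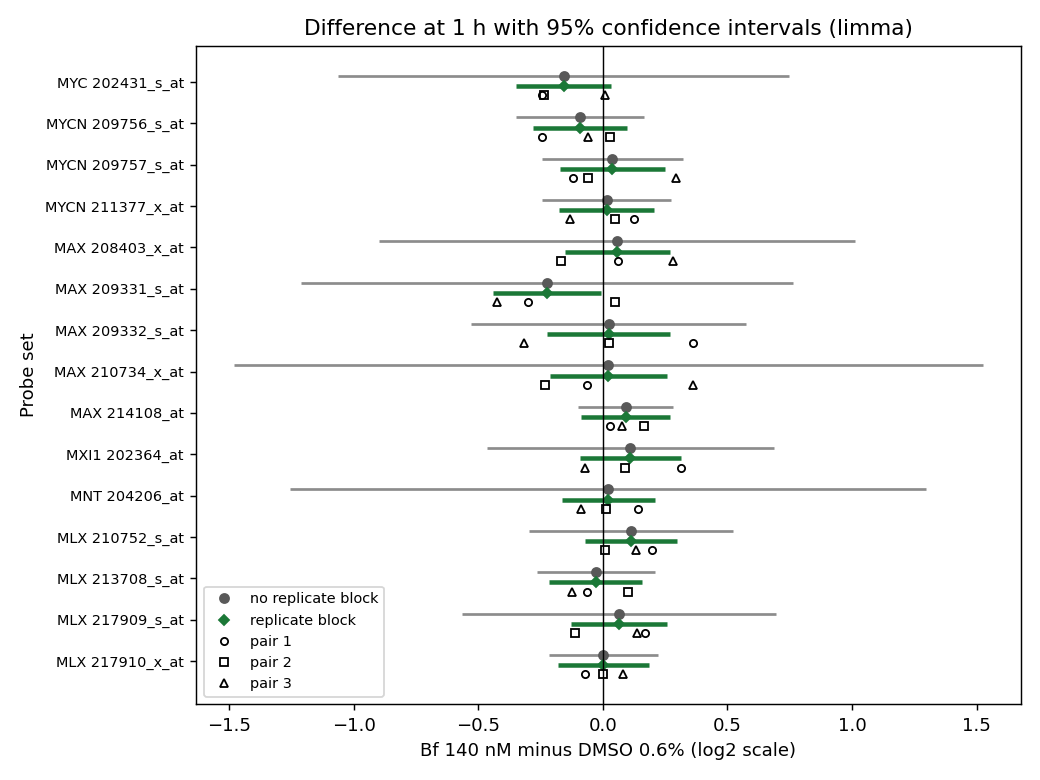
Difference between Bf 140 nM and DMSO 0.6% (log2 scale) for each member probe set, with 95% confidence intervals from limma without (grey) and with (green) the replicate block and the differences of pairs 1 to 3 as open symbols. The grey interval of MAX 210734_x_at reaches 1.53 and every grey interval crosses 0, while the green interval of MAX 209331_s_at alone ends below 0, at -0.0079.

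The replicate number, shared by an array of each treatment, went with far more of the members' variation than the treatment did. For the median member it took 88.0% of the sum of squares (76.5% for the median of all probe sets), and the treatment took 2.75% (2.61%), with 2 degrees of freedom for the number and 1 for the treatment. Above the median level the number took 93.2% for the median of 10 members and 86.4% for that of all probe sets. MAX 214108_at was the exception among members, at 7.44% for the number and 66.8% for the treatment. In a limma F test of the replicate number with the treatment in the fit, 9 of the 15 member probe sets passed an adjusted p under 0.10, which is 60% beside 44.6% of all probe sets. Calls were more common at higher levels. Of the members above the median level 8 of 10 passed, beside 63.6% of all probe sets at such levels.

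MNT had the smallest limma adjusted p of the members, 1.17e-06, with replicate means of 9.37, 9.55 and 10.83 for numbers 1, 2 and 3. MYC had means of 9.41, 8.83 and 8.29 (limma adjusted p = 2.19e-05). MXI1 had means of 10.59, 10.35 and 11.01 (limma adjusted p = 0.0017). MNT and MXI1 were high and MYC low in replicate 3. It differed from the mean of the other numbers by 1.37 for MNT, 0.54 for MXI1 and -0.83 for MYC. High values in replicate 3 were not general to the network. Of 6 other network members, each read by its brightest probe set, 3 were higher in it and 3 lower. The lower ones were MXD1 (-0.41), MXD3 (-0.37) and MGA (-0.42), which passed the F test. The higher ones, MYCL (0.12), MLXIP (0.038) and MLXIPL (0.0099), did not.

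Among MAX probe sets that difference was -1.61 for 210734_x_at, -1.04 for 209331_s_at, -1.01 for 208403_x_at, 0.49 for 209332_s_at and -0.0064 for 214108_at, and the first 4 passed the F test. Among MLX probe sets it was -0.64 for 217909_s_at and 0.40 for 210752_s_at, which both passed, while 213708_s_at and 217910_x_at did not. With equal array medians these last 2 passed as well, and after quantile normalisation 217910_x_at did. Opposite directions for probe sets of 1 gene were thus seen in both MAX and MLX. Of the MYCN probe sets 0 of 3 passed, with limma adjusted p of 0.38, 0.54 and 0.34, and their replicate means spanned 0.15 to 0.18.

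The 3′ excess of actin and GAPDH moved with replicate 3, and its part in these differences was not tested. Replicate 3 also had lower array medians. When the arrays were brought to equal medians or quantile normalised, the replicate 3 difference was -0.63 and -0.65 for MYC, 1.57 and 1.35 for MNT, and 0.74 and 0.45 for MXI1. The sign turned for MAX 214108_at and for MYCN 209756_s_at and 209757_s_at under both, and for MYCN 211377_x_at under equal medians. The median of all probe sets for the same difference was -0.067 as deposited, 0.13 with equal medians and 0.023 after quantile normalisation.

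MYC was also the member that differed between replicates 1 and 2, a contrast looked at after the values were seen. Replicate 2 minus replicate 1 was -0.58 (95% confidence interval -0.82 to -0.35, limma adjusted p = 0.014), and it was seen in both treatments. It was the 1 member of 15 to pass, beside 4.66% of all probe sets, and its size exceeded that of 98.7% of them. Among the other 14 members the largest was -0.24, for MXI1. The 3′ excess of actin was 0.12 and 0.10 on the replicate 1 arrays and 0.50 and 0.37 on those of replicate 2 (Bf 140 nM first), and its part in the difference was not tested.

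**Figure D3:**
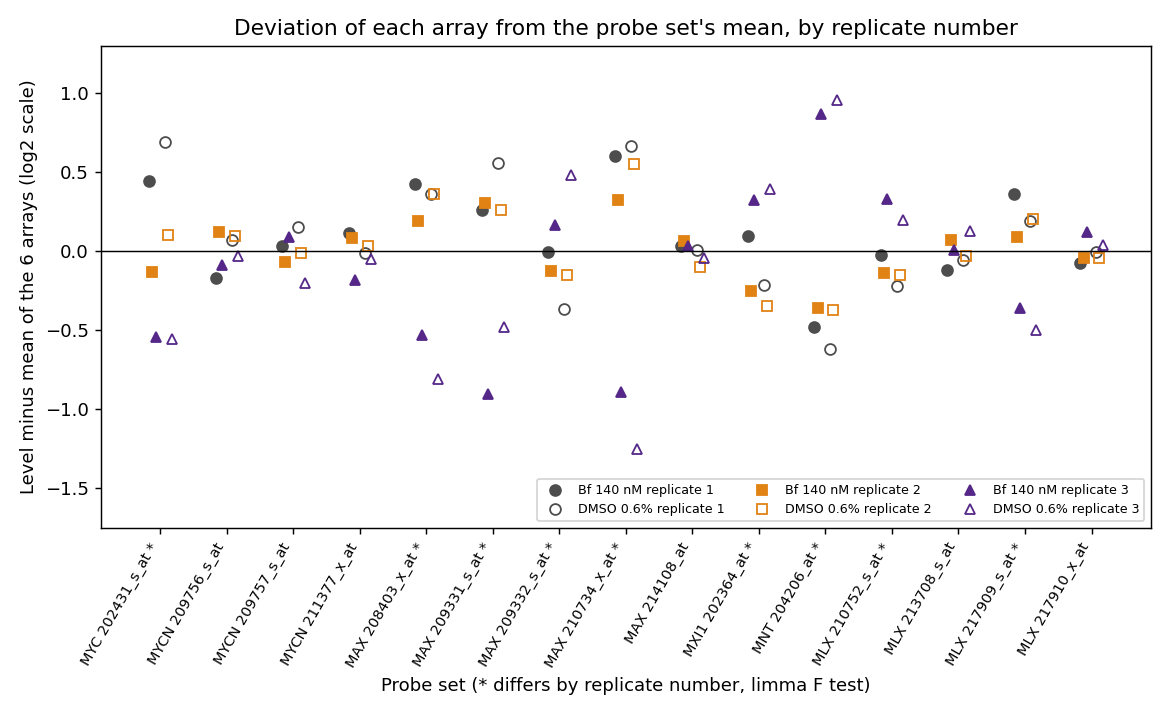
Level of each member probe set on each array minus its mean over the 6 arrays (log2 scale), coloured by replicate number, with filled symbols for Bf 140 nM and open symbols for DMSO 0.6%; stars mark the 9 probe sets that differed by replicate number. Symbols of 1 colour lie together for MYC and MNT, where replicate 3 differs from the other numbers by -0.83 and 1.37, and mix for the MYCN probe sets.

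The probe sets most like MYC 202431_s_at across the 6 arrays, among 9946 of other genes above the median level, were those of MEX3D (r = 0.998), SEPHS1 (0.996), ASXL1 (0.995), CRAT (0.994) and MED16 (0.994). Correlations over 0.9 with MYC were held by 14.3% of these probe sets, and all share the spread between replicate numbers. Over the 4 arrays without replicate 3 the 5 lay between 0.991 and 0.997, but these arrays were among those used to pick them. For MYCN 209757_s_at the nearest were MRPS34 (0.985), MAPK12 (0.985), YJU2B (0.983), DUS2 (0.977) and RTEL1 (0.977), and 0.653% of 9947 probe sets exceeded 0.9. These too were picked as the highest on the same 6 arrays, so their correlations show no link to MYCN. The dim 209757_s_at itself correlated at -0.082 with MYCN 209756_s_at and at -0.16 with MYCN 211377_x_at.

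The other members of the network, MYCL, MXD1, MXD3, MGA, MLXIP and MLXIPL, were each read by the brightest probe set of the gene, and 0 of 6 passed in either direction. MXD3, a repressor of the MXD family expressed in dividing cells, had the largest difference, 0.18, positive in all pairs at 0.10, 0.065 and 0.39 (as in 11.1% of all genes), with a 95% confidence interval from -0.38 to 0.75. MLXIP, the MondoA partner of MLX, was at -0.073 by its brightest probe set. The values of that probe set with Bf 140 nM all lay below those with DMSO 0.6%, as in 0.59% of all probe sets. The other MLXIP probe set had the opposite sign, at 0.029. The differences were 0.077 for MYCL, 0.033 for MXD1, -0.021 for MGA and 0.064 for MLXIPL. TXNIP, the best known target of MLX and MondoA, gave 0.034 (-0.32 to 0.38) by its brightest probe set. Its 3 probe sets ran from -0.035 to 0.092, and ARRDC4 of the same list was not measured.

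Cofactors and co-repressors were measured for 14 of 18 listed genes, with 0 higher and 0 lower and a median difference of 0.039. The 4 with the smallest p were SIN3B (-0.084) and HDAC1 (-0.062), of the co-repressor brought by the MAX competitors, and EP400 (0.11) and RUVBL1 (-0.085), of the acetylation complex brought by MYC. Regulators of MYC protein stability were measured for 10 of 14 genes, again with 0 higher and 0 lower and a median of -0.015. Here PPP2R5A, a phosphatase subunit, was at -0.079, FBXW7, the ubiquitin ligase subunit for phosphorylated MYC, at 0.091, GSK3B, the kinase that marks MYC for it, at 0.15, and PIM1 at -0.046. Levels of transcripts say nothing of the amount or phosphorylation of the MYC protein.

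Genes known to be activated by MYC were measured for 37 of 45 listed, with 0 higher and 0 lower, a median difference of 0.0089 and a range from -0.18 to 0.15. Those with the smallest p were RRP9 (0.14) and POLR1B (0.15), which act in ribosomal RNA processing and synthesis, IMPDH2 (-0.17), of guanine nucleotide synthesis, and LDHA (-0.078), of glycolysis. Genes known to be repressed by MYC were measured for 12 of 12, with 0 higher and 0 lower and a median of 0.0046. GAS1 and GADD45A, of growth arrest, were at 0.13 and -0.081, CDKN2B, an inhibitor of cyclin-dependent kinases, at 0.092, and THBS1 at -0.054. The last 2 were dim, at mean percentiles of 8.7 (CDKN2B) and 24.9 (THBS1), and the 5 THBS1 probe sets ran from -0.16 to 0.16. The median over the brightest probe sets of all 11963 genes was 0.013.

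The genes beside MYCN on its chromosome gave 0 of 4 measured that passed, at 0.0033 for MYCNOS, its antisense gene, 0.0011 for DDX1, 0.051 for NBAS and 0.071 for CYRIA. The marker lists likewise had 0 higher and 0 lower, with median differences of -0.012 for the noradrenergic, -0.038 for the mesenchymal and Schwann cell and 0.079 for the blood cell markers. By replicate number, 25 of the 37 activated genes differed, 5 of the 12 repressed genes, 10 of the 14 cofactors, 5 of the 10 stability regulators and 3 of the 6 other network members, beside 44.2% of all genes read this way. Above the median level, where 63.6% of all probe sets differed, lay 35 of the 37 activated genes, 14 of the 14 cofactors and 9 of the 12 repressed genes. Differences by replicate number were found for 12 of 13 noradrenergic markers and 2 of 9 mesenchymal and Schwann cell markers. They were found for 0 of 3 blood cell markers and 1 of 4 genes beside MYCN.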

How the data were processed

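RNA of 6 SH-SY5Y cultures (3 Bf 140 nM, 3 DMSO 0.6%, 1 h) was hybridised by the authors, who took cell intensities from GCOS, normalised them by VSN in R 2.5.0 and deposited log2 values per probe set. The sources used here do not state how probes were summarised or which arrays were normalised together. Base 2 was taken from the VSN method. On natural logs every fold would be larger. The number of arrays limits the precision.

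The platform annotation supplied the gene symbols: 19064 probe sets carried 1 symbol, 1043 carried several and 2108 had no symbol. The 62 platform controls were left out. Differences were fitted with limma 3.58.1 (lmFit and eBayes, R 4.3.3) without a filter, with Benjamini-Hochberg adjustment over 22215 probe sets and a threshold of 0.10, and the scripts were tested on simulated data. limma took the place of SAM, which the methods name, because it gives intervals.

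The main comparison had no block, since the methods describe none. Whether equal replicate numbers pair the arrays was checked from the values: after removing group means, arrays with the same number correlated at 0.725, 0.783 and 0.880 (numbers 1, 2 and 3). These correlations are affected by the replicate 3 arrays, which raise or lower both group means. No source ties a number to a shared day.

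All member probe sets are named. Of each list up to 4 genes with the smallest p are named, and all genes of lists under 7. The lists (other network members, cofactors and co-repressors, stability regulators, activated genes, repressed genes, MLX and MondoA targets, genes beside MYCN, 3 marker lists) came from textbook knowledge, and 109 of 133 entries were measured. Members and lists were chosen with earlier results of these data known. Alternatives were the replicate block, quantile normalisation, equal array medians, a filter at the median level, trend and robust eBayes, array weights, other thresholds, any probe set of a gene, and arrays left out.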

Additional observations from a re-analysis of the deposited data

How the results depend on the processing

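Without and with the replicate block, and under quantile normalisation, equal array medians, the filter at the median, trend and robust eBayes, array weights, thresholds of 0.05 and 0.20 and each array or both replicate 3 arrays left out, 0 member probe sets passed between treatments in limma. The replicate block changed no call, and 0 list genes passed with it or with any probe set of a gene. Over all probe sets the count was 0 in each of these, and 25 with both replicate 3 arrays left out and the replicate block, a setting added after seeing the data that leaves 1 residual degree of freedom and an infinite prior. In that setting MYC was at -0.24 (95% confidence interval -0.45 to -0.036, limma adjusted p = 1.00). Signs of the small differences were not stable: 20 of 115 turned in settings that leave out no single array, and 28 of 90 when 1 array was left out. With array weights, values turned to -0.012 for MYCN 209757_s_at, -0.16 for MAX 208403_x_at, -0.28 for MAX 210734_x_at, 0.024 for MLX 213708_s_at and -0.065 for MLX 217909_s_at. With both replicate 3 arrays left out, with or without the replicate block, they turned to -0.089 for MYCN 209757_s_at, -0.054 for MAX 208403_x_at, -0.15 for MAX 210734_x_at, 0.020 for MLX 213708_s_at and -0.036 for MLX 217910_x_at. Quantile normalisation gave -0.016 for MYCN 211377_x_at, -0.013 for MAX 210734_x_at and -0.0074 for MLX 217910_x_at, and equal medians gave -0.0039 for MYCN 211377_x_at and -0.017 for MLX 217910_x_at. The causes were not tested. The fits with array weights or with 1 array left out had no replicate block. In them replicate numbers did not count equally in both treatments, so differences between replicate numbers enter the treatment difference. MNT was at -0.41 without Bf 140 nM replicate 3 and 0.51 without DMSO 0.6% replicate 3. Its differences within replicate numbers were 0.14, 0.012 and -0.089. Leaving out 1 array gave ranges of -0.47 to 0.15 for MYC, -0.053 to 0.12 for MYCN 209757_s_at, -0.038 to 0.11 for MYCN 211377_x_at, -0.33 to 0.34 for MAX 208403_x_at, -0.52 to 0.17 for MAX 209331_s_at, -0.15 to 0.27 for MAX 209332_s_at, -0.60 to 0.47 for MAX 210734_x_at, -0.034 to 0.34 for MXI1, -0.41 to 0.51 for MNT, -0.023 to 0.24 for MLX 210752_s_at, -0.070 to 0.030 for MLX 213708_s_at, -0.17 to 0.26 for MLX 217909_s_at and -0.056 to 0.040 for MLX 217910_x_at. MYCN 209756_s_at and MAX 214108_at kept their sign throughout, with ranges of -0.18 (without Bf 140 nM replicate 2) to -0.029 (without Bf 140 nM replicate 1) and of 0.064 to 0.12. By replicate number the 9 members became 1, MYC, and the 9897 probe sets became 2783 (12.5%) with both replicate 3 arrays left out. Members numbered 10 after quantile normalisation (43.6% of all probe sets) and 11 with equal array medians (49.5%). With the filter at the median they were 8 of 10, beside 63% of the probe sets kept. With 1 array left out they were 8 to 10 members and 7392 to 11061 probe sets. MYCN 209757_s_at joined them without Bf 140 nM replicate 3, and MAX 209332_s_at was lost without DMSO 0.6% replicate 3. Dim probe sets, those of MYCN among them, limit what these arrays can show, and the filter at the median left 10 of the 15 members.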
